A study of Gallus gallus with 6 samples.

Results

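The genes described here are 10 members of the canonical Wnt pathway, followed in the ceca and the interceca of the chick embryo: the ligand WNT2B, the agonist RSPO3 (R-spondin 3), the receptor LGR5, the ubiquitin ligases RNF43 and ZNRF3, the nuclear factor LEF1, and the feedback inhibitors AXIN2, NKD1, DACT2 and NOTUM. They were taken by name from the 17108 genes listed. Of the 10, 9 were found by symbol and LEF1 as Lef-1, its older symbol, and all 10 were among the 10678 genes tested. They had been picked with their difference between these tissues in view, so their levels and fold changes are a description and carry no test. The samples were 3 libraries of ceca, the paired blind outgrowths at the junction of midgut and hindgut, and 3 libraries of the region that the labels call interceca, dissected from embryonic guts at day 5 (Hamburger-Hamilton stage 26). No treatment or genetic change is named for either tissue. The labels give neither the borders of the dissection nor the number of embryos behind a library, so the spread between libraries may be technical. Whole gut segments were profiled, and fewer cells of a type cannot be told apart from less RNA per cell.

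In canonical Wnt signalling a secreted Wnt protein brings a Frizzled receptor together with the co-receptor LRP5 or LRP6, and this keeps β-catenin from being broken down by a complex built on AXIN and APC. β-Catenin then acts in the nucleus with factors of the LEF and TCF family. The ubiquitin ligases RNF43 and ZNRF3 remove Frizzled from the cell surface, and R-spondins, bound to LGR receptors, take the ligases away and so strengthen the signal. AXIN2, NKD1, NOTUM, LGR5, RNF43, ZNRF3 and LEF1 are themselves widely known as transcriptional targets of the pathway, which makes them feedback genes. DACT2 is grouped with the feedback inhibitors here without being counted among these targets. In the gut this signalling maintains the stem cells of the epithelium and takes part in patterning along the length of the tube, with much of the ligand and R-spondin coming from the mesenchyme.

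The values are the authors' RPKM (reads divided by the length of the gene and the size of the library), and reads recovered from them came to between 15810133 and 22910294 per library. Across genes, which do not replicate each other, log2 levels correlated at 0.987 to 0.991 between libraries of a tissue and at 0.943 to 0.959 between tissues. All 5 genes listed for the cecal bud mesenchyme (FGF10, GDNF, PITX1, EDN3 and BMP4) were higher in ceca (limma), and their summed level lay at 282 to 321 RPKM there against 143 to 155 in interceca. By an adjusted p under 0.05 in limma, 13.5% of all genes tested were higher in ceca. The list was chosen with earlier results of these data known, so nothing is read from its count.

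The ceca carried more transcript of the ligand, the agonist, the nuclear factor and all 4 feedback inhibitors, and less of the receptor LGR5. In 7 of the 10 members every ceca library lay above every interceca library, as in 23.0% of all genes tested, and in LGR5 the order was the reverse, as in 21.1%. The same 7 and 1 were past an adjusted p of 0.05 in limma, which 13.5% of all genes tested were toward ceca and 14.1% toward interceca. Nothing is read from these counts, since the members were picked on this contrast. The median log2 fold change of the members, ceca over interceca, was 0.79, beside 0.01 over all genes tested. Nothing is read from this median either, for the same reason.

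**Figure D1:**
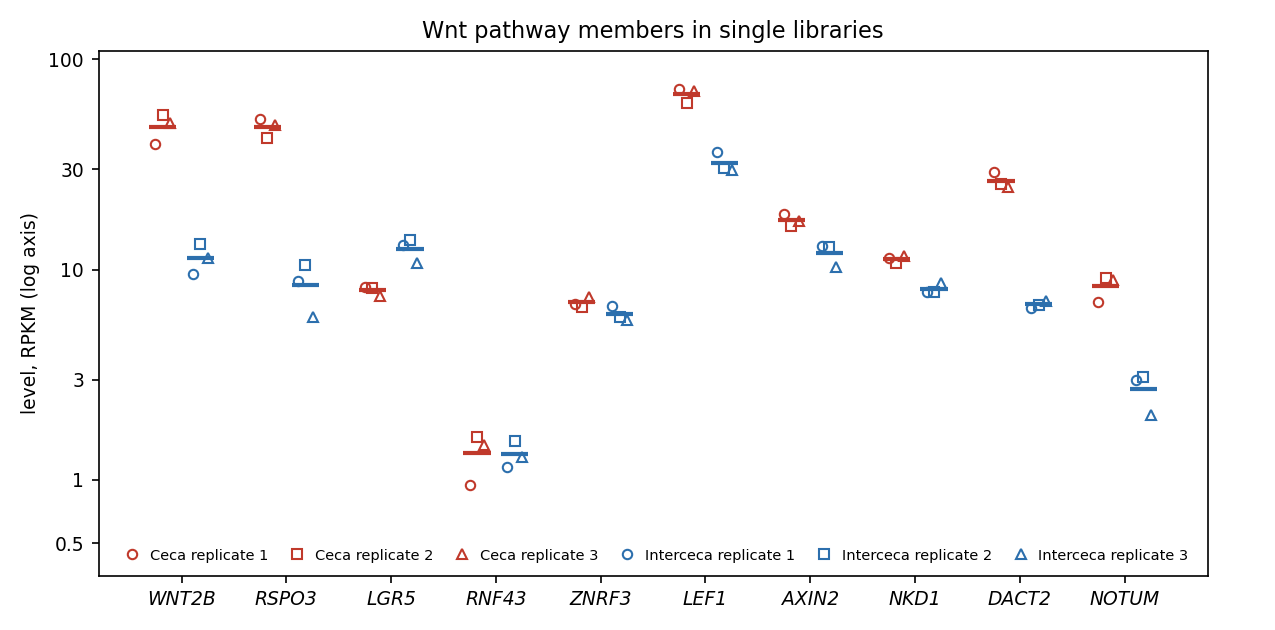
Level of each member in RPKM (log axis) in the 3 ceca libraries (red) and the 3 interceca libraries (blue), with symbols for the replicate number and bars for the mean of a tissue. WNT2B, RSPO3, LEF1, AXIN2, NKD1, DACT2 and NOTUM lie higher in every ceca library, LGR5 lies lower, and the libraries of RNF43 and ZNRF3 overlap.

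WNT2B, a ligand of the canonical kind, stood at 39.5, 54.4 and 49.6 RPKM in ceca replicates 1 to 3 and at 9.56, 13.2 and 11.4 RPKM in interceca replicates 1 to 3. The lowest ceca library was above the highest interceca library, and replicate 1 was the lowest in both tissues. The difference was a log2 fold change of 2.03 ± 0.14 (SE), the 23rd furthest toward ceca of the 10678 genes tested. By level WNT2B exceeded 82.6% of the genes tested in ceca and 40.1% in interceca.

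WNT2B also made up most of the transcript of the 12 canonical ligands that were matched, with WNT1, WNT2 and WNT10B not analysed here. Of the summed RPKM of these 12 it held 93.0% ± 0.891 in ceca and 79.5% ± 1.85 in interceca (SD, n = 3 each). The sum itself was 51.5 ± 7.9 RPKM in ceca and 14.3 ± 2.44 in interceca. Only WNT9A and WNT16 of the other 11 passed the filter on low values, and neither was past the threshold. WNT9A stood at 2.62 ± 0.366 against 1.55 ± 0.723 RPKM (limma adjusted p = 0.105, and 0.0449 with the replicate block). Without interceca replicate 2 its adjusted p was 0.0464. WNT16 stood at 0.892 ± 0.144 against 1.23 ± 0.154 RPKM (limma adjusted p = 0.211). WNT3, WNT7B, WNT9B and WNT10A were listed at 0 in every library, and WNT3A, WNT6, WNT7A, WNT8A and WNT8B were below the filter. A level listed at 0 may be a failed estimate, and the shares of WNT2B took it as a true 0. WLS, which carries Wnt proteins to the cell surface, lay at 109 ± 1.38 RPKM in ceca and 110 ± 3.18 in interceca.

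RSPO3 stood at 51.8, 42.1 and 48.9 RPKM in ceca replicates 1 to 3 and at 8.83, 10.5 and 5.95 RPKM in interceca replicates 1 to 3. The tissues were far apart, and the interceca libraries varied more among themselves, with a coefficient of variation of 27.4% against 10.4% in ceca. The log2 fold change of 2.46 ± 0.18 (SE) was the 11th furthest toward ceca among the genes tested, the highest rank of any member. In ceca the levels of RSPO3 and WNT2B could not be told apart, at means of 47.6 and 47.9 RPKM with overlapping ranges. The ratio of WNT2B to RSPO3 levels was 1.02 ± 0.264 in ceca and 1.41 ± 0.435 in interceca (SD, n = 3 each).

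Among the R-spondins, RSPO3 accounted for 83.0% ± 2.88 of the summed RPKM of the 4 genes in ceca and for 52.1% ± 6.83 in interceca. RSPO1 stood at 5.28 ± 0.773 against 4.14 ± 0.255 RPKM (limma adjusted p = 0.104). Its adjusted p was 0.0497 with the replicate block, 0.0477 with quantile normalization and 0.0436 without ceca replicate 1. RSPO2 stood at 3.80 ± 0.343 against 2.99 ± 0.206 RPKM (limma adjusted p = 0.0939). Quantile normalization gave RSPO2 an adjusted p of 0.0295, and a fit without a trend gave 0.0388. RSPO4 was below the filter. RSPO1 and RSPO2 thus each differed by 1.27 times in their mean levels, and RSPO3 by 5.64 times.

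LGR5, a receptor of R-spondins and a marker of intestinal stem cells in mice, went the other way. It stood at 8.30, 8.17 and 7.49 RPKM in ceca replicates 1 to 3 and at 13.1, 13.9 and 10.8 RPKM in interceca replicates 1 to 3. All ceca libraries were below all interceca libraries, and the log2 fold change was -0.62 ± 0.11 (SE). The ratio of RSPO3 to LGR5 levels was therefore 6.24, 5.16 and 6.53 in the ceca libraries and 0.673, 0.755 and 0.554 in the interceca libraries. In ceca the agonist exceeded this receptor in transcript level, and in interceca the receptor exceeded the agonist.

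LGR4, which also binds R-spondins, was the most abundant of the 3 LGR genes in both tissues. Its mean level was 27.3 ± 1.27 RPKM in ceca against 27.5 ± 1.61, with a log2 fold change of -0.01 ± 0.06 (SE). LGR5 held 22.5% ± 1.61 of the summed RPKM of LGR4, LGR5 and LGR6 in ceca and 30.9% ± 3.64 in interceca, and the sum was 35.6 ± 1.08 against 40.7 ± 1.66 RPKM. LGR6 was below the filter.

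Markers of the gut epithelium moved in the direction of LGR5. Of 6 tested, 5 were higher in interceca, and KRT19 passed as well with the replicate block (limma adjusted p = 0.000565). Beside this and the marker counts below, 14.1% of all genes tested were higher in interceca and 13.5% higher in ceca. The marker lists were chosen with earlier results of these data known. The summed level of the 11 matched markers lay at 121 to 186 RPKM in ceca and at 363 to 551 in interceca, with KRT8 and KRT18 listed at 0 in every library. EPCAM, a surface protein of epithelial cells, had a log2 fold change of -1.76 ± 0.17, a larger difference than that of LGR5. All 6 smooth muscle markers tested were also higher in interceca, with summed levels of 184 to 212 RPKM in ceca against 466 to 495. Their part in the difference of LGR5 was not tested.

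Markers of the mesothelium, the outer lining of the gut, were split between the tissues. Of 7 tested, WT1, BNC1, TCF21 and LRRN4 were higher in ceca, with log2 fold changes of 2.74, 0.89, 0.52 and 0.94. UPK1B and MSLN were higher in interceca, with log2 fold changes of -2.54 and -2.27, and OSR1 did not pass. The summed level of the 8 markers was 308 to 328 RPKM in ceca against 109 to 123. WT1 alone gave 188 ± 13.9 of it in ceca and 27.8 ± 3.45 in interceca. Of 7 general markers of gut mesenchyme tested, COL3A1 was past the threshold, toward interceca, and the summed levels were 748 to 798 against 822 to 913 RPKM. COL3A1 gave 63.8 ± 4.88 RPKM of the sum in ceca and 171 ± 18.4 in interceca. FOXF1 and COL1A2, the largest parts, stood at 326 and 275 RPKM in ceca against 321 and 278 in interceca. PDGFRA, a mesenchymal receptor, stood at 91.4 ± 6.81 against 75.6 ± 8.33 RPKM (limma adjusted p = 0.0513, and 0.0026 with the replicate block). Of 8 blood vessel markers CDH5 was past the threshold, toward ceca, with a limma adjusted p of 0.0482 that rose to between 0.0613 and 0.122 when ceca replicate 1, 2 or 3 or interceca replicate 1 or 3 was left out. It was 0.057 with median-of-ratios scaling, 0.0656 with quantile normalization, 0.0665 with no filter and 0.0887 with no trend. Of 6 enteric neural crest markers EDNRB was past it, toward interceca, with a limma adjusted p of 0.0214 that was 0.0748 when interceca replicate 2 or 3 was left out. With the replicate block SOX10, RET and TUBB3 passed too, toward interceca. Summed levels were 152 to 166 against 128 to 164 RPKM for vessels and 733 to 850 against 878 to 902 for the neural crest. Neither of the 2 blood cell markers tested passed, with sums of 11.7 to 32.6 against 18.3 to 30.3 RPKM and HBAA and HBAD listed at 0. The part of these cell types in the levels of WNT2B and RSPO3 was not tested.

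The ubiquitin ligases that R-spondins act on showed no separation between the tissues. ZNRF3 stood at 6.88, 6.66 and 7.45 RPKM in ceca replicates 1 to 3 and at 6.70, 5.96 and 5.75 RPKM in interceca replicates 1 to 3, with a log2 fold change of 0.18 ± 0.09 (SE). RNF43 stood at 0.945, 1.60 and 1.46 RPKM in ceca and at 1.15, 1.53 and 1.29 RPKM in interceca, with a log2 fold change of -0.01 ± 0.19 (SE). The libraries of the tissues overlapped in both genes. RNF43 was the lowest of the 10 members in each tissue and rested on 39 to 79 reads per library. ZNRF3 gave 84.1% ± 3.64 of the summed RPKM of the pair in ceca and 82.2% ± 2.94 in interceca. The ratio of ZNRF3 to LGR5 levels was 0.880 ± 0.0995 in ceca and 0.491 ± 0.056 in interceca.

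LEF1, the factor through which β-catenin activates many of its targets, was the most abundant member in both tissues. It stood at 72.2, 62.3 and 71.0 RPKM in ceca replicates 1 to 3 and at 36.3, 30.4 and 29.9 RPKM in interceca replicates 1 to 3. The lowest ceca library was well above the highest interceca library, and the log2 fold change was 1.08 ± 0.09 (SE). Its level exceeded that of 88.9% of the genes tested in ceca and of 72.9% in interceca.

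TCF7L2, another factor of the family, was lower in ceca, at 35.4 ± 3.35 against 46.1 ± 4.62 RPKM (log2 fold change -0.38 ± 0.09 SE, limma adjusted p = 0.0167). Without ceca replicate 2 or 3 its adjusted p was 0.0577 or 0.064. The most abundant factor of the family was thus LEF1 in ceca and TCF7L2 in interceca. LEF1 held 63.3, 63.4 and 66.0% of the summed RPKM of the family in the ceca libraries and 40.3, 40.5 and 38.0% in the interceca libraries. The sum was 107 ± 7.83 RPKM in ceca and 81.3 ± 7.77 in interceca. TCF7 took the small remainder, at 2.76 ± 0.198 against 2.96 ± 0.134 RPKM (limma adjusted p = 0.618), and TCF7L1 was listed at 0 in every library. That 0 may be a failed estimate, and the shares of the family took it as a true 0.

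**Figure D2:**
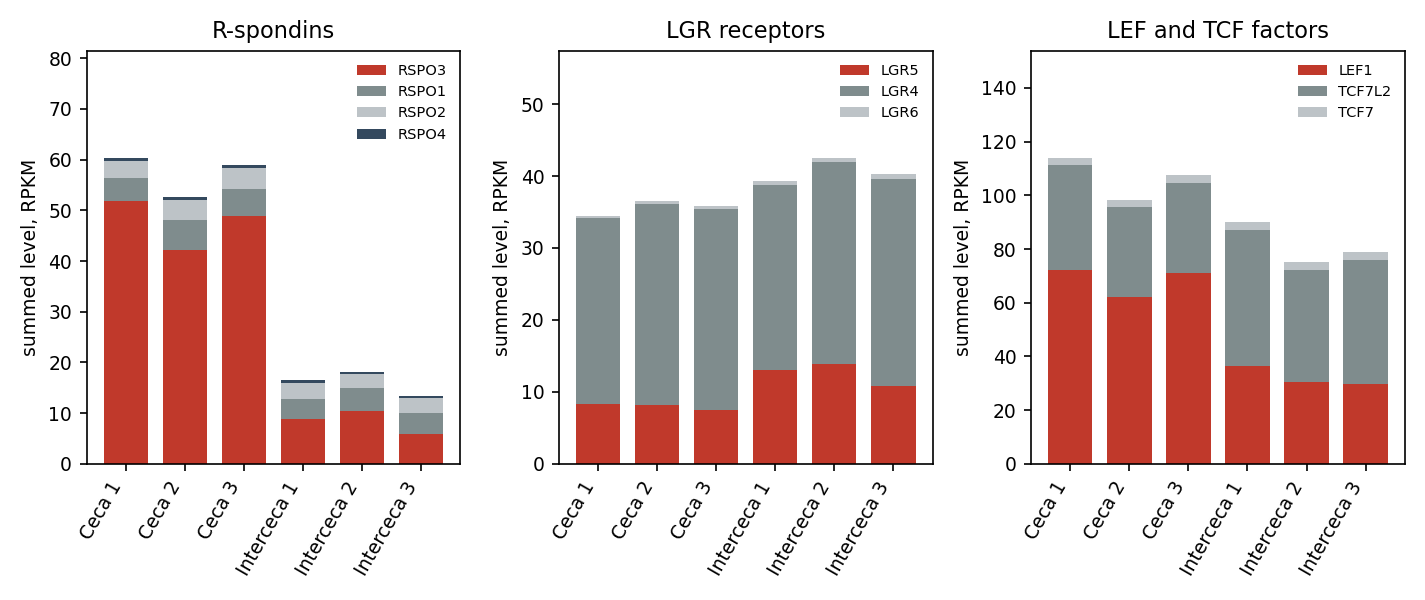
Summed level in RPKM of the R-spondins, the LGR receptors and the LEF and TCF factors in each library, with the share of each gene as a stacked bar (members in red). The ceca sums of the R-spondins are 52.6 to 60.3 RPKM against 13.3 to 18.1 in interceca, with RSPO3 the largest part in every library, whereas LGR4 lies between 25.7 and 28.8 RPKM in all 6 libraries.

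The 4 feedback inhibitors were all higher in ceca, by unequal amounts. AXIN2, a scaffold of the β-catenin destruction complex, stood at 18.3, 16.1 and 17.0 RPKM in ceca replicates 1 to 3 and at 12.9, 12.8 and 10.3 RPKM in interceca replicates 1 to 3. NKD1, which binds Dishevelled and dampens the signal, stood at 11.3, 10.7 and 11.6 RPKM in ceca and at 7.83, 7.84 and 8.60 RPKM in interceca. For both genes the tissues stood apart by a small margin, with log2 fold changes of 0.50 ± 0.10 (SE) for AXIN2 and 0.44 ± 0.08 for NKD1.

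DACT2 and NOTUM differed more. DACT2, of a family that binds Dishevelled, stood at 29.1, 25.6 and 24.8 RPKM in ceca replicates 1 to 3 and at 6.58, 6.82 and 7.11 RPKM in interceca replicates 1 to 3. NOTUM, a secreted enzyme that inactivates Wnt proteins by removing their lipid, stood at 7.04, 9.14 and 8.94 RPKM in ceca and at 2.97, 3.10 and 2.03 RPKM in interceca. No libraries of the tissues overlapped in either gene. NOTUM rested on 52 to 69 reads per interceca library. The log2 fold change was 1.88 ± 0.08 (SE) for DACT2, the 31st furthest toward ceca of the genes tested, and 1.48 ± 0.16 for NOTUM, the 88th. The ratio of DACT2 to AXIN2 levels was 1.55 ± 0.0763 in ceca and 0.577 ± 0.0989 in interceca. DACT1, the paralog of DACT2, was more abundant in both tissues and higher in ceca, at 120 ± 9.9 against 84.3 ± 7.19 RPKM (log2 fold change 0.51 ± 0.08 SE, limma adjusted p = 0.00219), so DACT2 gave 18.0% ± 0.565 of the pair's summed RPKM in ceca and 7.55% ± 0.884 in interceca.

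The authors' deposited table gives log2 fold changes of 2.07 for WNT2B, 2.50 for RSPO3, 1.65 for NOTUM, 1.95 for DACT2 and 0.51 for AXIN2. Each of these exceeds the value given above, those of NOTUM and DACT2 by the most. With 0.1 RPKM added in place of 0.5, the log2 fold change was 1.61 for NOTUM and 1.94 for DACT2, against 1.48 and 1.88. The authors' deposited table gives -0.66 for LGR5 and 0.01 for RNF43.

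The order of the members by level also differed between the tissues. In ceca it ran LEF1, WNT2B, RSPO3, DACT2, AXIN2, NKD1, NOTUM, LGR5, ZNRF3 and RNF43, from 68.5 down to 1.33 RPKM. Of the 9 pairs of neighbours in that order, WNT2B with RSPO3 and NOTUM with LGR5 had overlapping ranges. In interceca it ran LEF1, LGR5, AXIN2, WNT2B, RSPO3, NKD1, DACT2, ZNRF3, NOTUM and RNF43, from 32.2 down to 1.33 RPKM. There 5 of the 9 pairs of neighbours overlapped, and LGR5 to NKD1 formed a run in which each overlapped the next. LEF1 was first and RNF43 last in both.

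Within a tissue the members did not all vary together. In interceca replicate 3, 6 of the 10 members (RSPO3, LGR5, ZNRF3, LEF1, AXIN2 and NOTUM) had their lowest level of the 3 interceca libraries, as did 34.7% of all genes tested. RSPO3 there lay 0.43 below its interceca mean on the log2(RPKM + 0.5) scale and NOTUM 0.32 below. No member was lowest in interceca replicate 2, where 28.8% of all genes tested were lowest. That interceca replicate 3 also had the highest levels of the posterior Hox genes HOXD12 and HOXD13, at 5.47 and 3.10 RPKM against at most 1.90 and 0.756 in the other interceca libraries. The part of this difference between libraries in the levels of RSPO3 and NOTUM was not tested. Without interceca replicate 3 the log2 fold change was 2.24 for RSPO3, 1.32 for NOTUM, 0.39 for AXIN2 and -0.73 for LGR5.

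**Figure D3:**
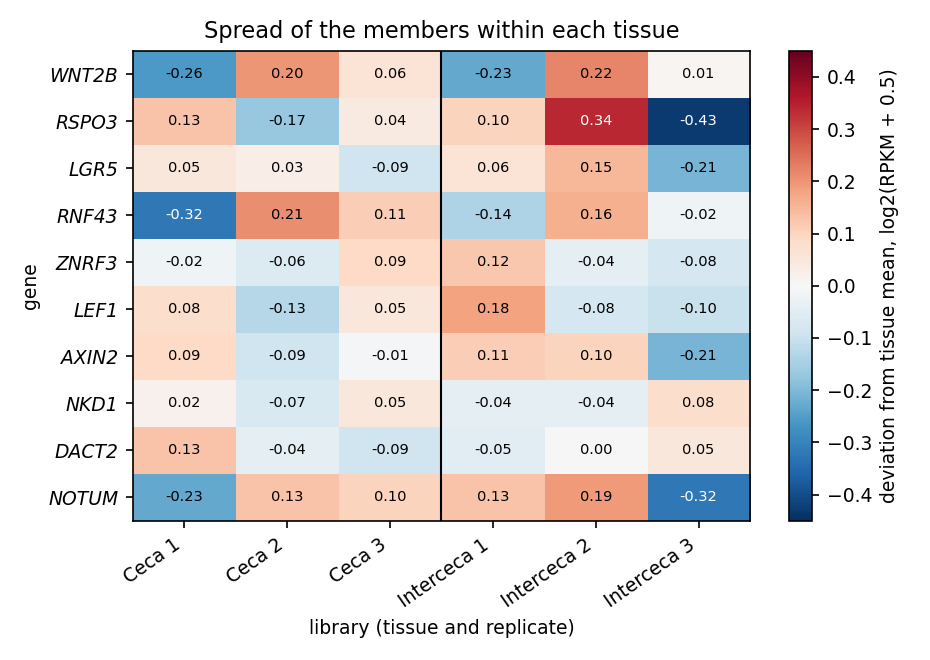
Deviation of each member from the mean of its own tissue on the log2(RPKM + 0.5) scale, by library, red above and blue below the mean. WNT2B and RNF43 are lowest in replicate 1 of both tissues, and RSPO3 (-0.43), NOTUM (-0.32), LGR5 and AXIN2 (both -0.21) are lowest in interceca replicate 3.

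A few other genes had a profile over the 6 libraries most like those of the ligand, the agonist and the receptor. Likeness was the root mean square difference of log2(RPKM + 0.5) after subtraction of each gene's own mean. Only tested genes with a gene symbol were ranked. Of the 17108 genes listed, 3386 have an Ensembl identifier in its place and could not appear. Closest to WNT2B were NLGN1 (0.119), a neuroligin, ncx3 (0.139) and the glutamate receptor gene GRM4 (0.140). NLGN1 stood at 21.7 ± 2.36 RPKM in ceca and 5.19 ± 0.222 in interceca. Closest to RSPO3 were GRIN3A (0.201), a glutamate receptor subunit, WT1 (0.214), a transcription factor, and SLC6A2 (0.258), the noradrenaline transporter. GRIN3A stood at 55.5 ± 1.89 against 11.2 ± 1.28 RPKM. Closest to LGR5 were the kinase gene MAP3K13 (0.048), the sestrin SESN3 (0.075) and the kinase gene WNK4 (0.082). MAP3K13 stood at 2.73 ± 0.207 against 4.72 ± 0.627 RPKM. Likeness over 6 libraries in 2 tissues mostly reflects the size of the difference between the tissues.

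The rest of the canonical pathway was followed through lists of its other genes. Of 78 other pathway genes listed, 65 were matched and 46 tested, of which 11 were higher in ceca, 4 were higher in interceca and 31 did not pass (limma, adjusted over all genes tested). Of all genes tested, 13.5% were higher in ceca and 14.1% higher in interceca by the same threshold. The median log2 fold change of the 46 was 0.12, beside 0.01 over all genes tested. These lists were chosen with earlier results of these data known, so nothing is read from the counts or from this median. Without ceca replicate 3 the count toward interceca was 2.

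At the receptor, LRP6 was higher in ceca at 9.86 ± 0.794 against 7.19 ± 0.408 RPKM (log2 fold change 0.43 ± 0.09 SE, limma adjusted p = 0.00867). LRP5, the other co-receptor, stood at 10.6 ± 0.958 against 12.2 ± 1.49 RPKM (limma adjusted p = 0.215). Of the 5 tested R-spondin, LGR and co-receptor genes outside the members, LRP6 alone passed.

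Of 11 tested genes of the destruction complex and the transducers, AMER2 and APC were higher in ceca, CTNNB1 was lower and 8 did not pass. APC2 was below the filter. AMER2, a membrane adaptor of APC, stood at 5.51 ± 0.171 against 2.31 ± 0.373 RPKM (log2 fold change 1.10 ± 0.13 SE, limma adjusted p = 0.000501). CTNNB1, which encodes β-catenin, stood at 684 ± 33.7 against 800 ± 22.9 RPKM (-0.23 ± 0.06 SE, limma adjusted p = 0.0194). That adjusted p became 0.0892 when ceca replicate 3 was left out and 0.0847 when interceca replicate 2 was. APC had a log2 fold change of 0.36 ± 0.10 (limma adjusted p = 0.033). The adjusted p of APC was 0.0524 with no filter. It was 0.078 or 0.107 when ceca replicate 1 or 2 was left out and 0.0703 or 0.0988 when interceca replicate 1 or 3 was.

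Of 10 other nuclear factors tested, CTNNBIP1, PYGO1 and TLE1 were higher in ceca, TCF7L2 was lower and 6 did not pass. CTNNBIP1, an inhibitor that binds β-catenin, stood at 49.1 ± 3.06 against 35.1 ± 1.37 RPKM (log2 fold change 0.48 ± 0.06 SE). PYGO1, a co-activator, stood at 22.7 ± 0.408 against 16.3 ± 0.842 RPKM (0.46 ± 0.06). TLE1, a co-repressor, had a log2 fold change of 0.23 ± 0.07 (limma adjusted p = 0.0326). The call of TLE1 rested on most libraries, since leaving out ceca replicate 1, 2 or 3 gave an adjusted p of 0.0825, 0.0879 or 0.0875, and leaving out interceca replicate 2 or 3 gave 0.0635 or 0.098. Of 5 other feedback inhibitors tested, DACT1 passed, and TRABD2A was below the filter.

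Among 12 other known targets tested, EPHB3, MYC, TNFRSF19 and SP5 were higher in ceca, CDX1 and JUN were lower and 6 did not pass. MSX1, MSX2, CD44, TBX3 and GREM1 were below the filter. At their low levels, every interceca library lay above every ceca library in MSX1, TBX3 and GREM1, and the tissues overlapped in MSX2 and CD44. EPHB3, an ephrin receptor, stood at 41.0 ± 1.5 against 29.2 ± 0.994 RPKM (log2 fold change 0.48 ± 0.05 SE). TNFRSF19 stood at 58.1 ± 4.25 against 41.2 ± 6.73 RPKM (0.50 ± 0.11). SP5, a transcription factor, stood at 4.31 ± 0.942 against 2.63 ± 0.373 RPKM (0.61 ± 0.17, limma adjusted p = 0.0314). For SP5, leaving out ceca replicate 1 or 3 gave an adjusted p of 0.0859 or 0.0954, and leaving out interceca replicate 2 or 3 gave 0.0944 or 0.0994. It was 0.0532 with no filter and 0.0505 with limma-voom. JUN, a subunit of AP-1, stood at 55.1 ± 8.51 against 95.2 ± 10.3 RPKM (-0.79 ± 0.12 SE, limma adjusted p = 0.00167). CDX1, which the gut epithelium expresses, had the largest difference of the 46, a log2 fold change of -3.02 ± 0.26, and the epithelial markers moved in the same direction. The part of the epithelium in the level of CDX1 was not tested.

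**Figure D4:**
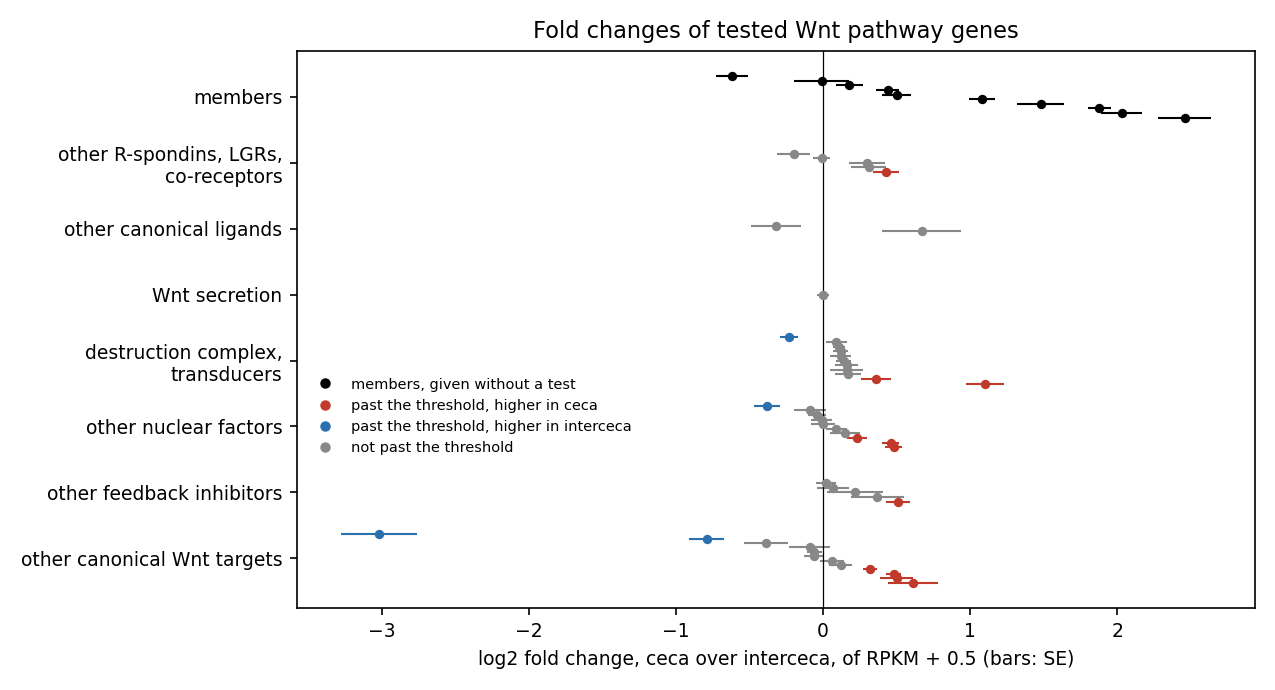
Log2 fold change of RPKM + 0.5, ceca over interceca, with its SE, for the 10 members (black) and the 46 other pathway genes tested, by list, red or blue where past an adjusted p of 0.05 in limma. The members reach from -0.62 (LGR5) to 2.46 (RSPO3), and the other genes lie between -0.79 and 1.10 except CDX1 at -3.02.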

How the data were processed

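Ceca and interceca gave 3 RNA libraries each, made with a directional kit, per the labels' protocols. The submitters' processing notes name bcl2fastq, STAR, HTSeq, edgeR and galGal4. Roles, versions, annotation and strand use were not given in the sources used here, so overlapping or antisense genes are uncertain. The deposited values are the authors' RPKM, and the 6 per-library files equal the series table. Per the file headers, that deposited table also holds the authors' logFC, p-values, FDR and - logFDR. No header gives a log base. By their values, the deposited fold changes of the authors are log2 and the deposited last column is the -log10 of the FDR. Its column total, 1 row with no gene name, was left out.

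Whole reads, within 0.01 read, were recovered for 98.8% of the 14080 genes above 0, and 3 reads were taken as the limit a count of 0 allows, 1.31e-05% to 1.9e-05% of a library (counting error only). A gene was tested if 3 or more libraries reached 1 RPKM. The test was limma 3.58.1 (R 4.3.3) on log2(RPKM + 0.5), with lmFit and trended eBayes, two-sided, and Benjamini-Hochberg adjustment over the 10678 genes. It was tried on simulated reads with the same spread between libraries (dispersion 0.00263) for every gene, unlike real genes. Of 219 calls there, 24 were unchanged genes. That share is above the threshold, which bears on the calls, above all on those near it. Summaries and figures used Python 3.11.15, pandas 2.3.3 and matplotlib 3.10.9. A gene listed at 0 may be a failed estimate. AXIN1, which has 2 rows, was not used.

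The tissues share replicate numbers. Same-numbered libraries deviated together from their tissue means (correlation over genes 0.364, 0.227 and 0.213). The codes in the sample titles also alternate between interceca and ceca in order of replicate number. On this evidence only, the numbers may mark pairs. The main test did not use the pairing, and its p-values are unpaired. A replicate block used it, as an alternative. With the block 1879 genes were higher in ceca and 1888 higher in interceca, against 1439 and 1502 in the main test. Alternatives were a replicate block, 2 other scalings, 2 pseudocounts, 2 filters, no trend, limma-voom on recovered reads and leaving out each library.

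Members and lists were chosen with earlier results of these data known. Every member is named, and in each pathway list up to 3 genes past the threshold in each direction with the smallest p. Other genes of a member's family, WLS, LRP5, SP5, HOXD12 and HOXD13 were chosen after their values were seen. Older symbols were matched through RefSeq names of another assembly.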

Additional observations from a re-analysis of the deposited data

How the results depend on the processing

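The counts of members past the threshold, 7 toward ceca and 1 toward interceca, were the same in all 15 alternatives, and nothing is read from this, since the members were picked on this contrast and 13.5% and 14.1% of all genes tested were past it. RNF43, at -0.01, changed sign with quantile normalization (0.26), without ceca replicate 1 (0.15) and without interceca replicate 2 (0.07). Leaving out each library gave 900 to 1286 genes higher in ceca and 999 to 1316 higher in interceca, against 1439 and 1502 with all. It gave 8 to 10 other pathway genes toward ceca and 2 to 5 toward interceca, against 11 and 4. With the replicate block 15 were toward ceca and 5 toward interceca, and of the pathway genes named WNT9A and RSPO1 changed their call, beside the markers KRT19, PDGFRA, SOX10, RET and TUBB3. No scaling moved the median of all genes by 0.1. Depth limits precision most for RNF43, with 39 to 79 reads per library, and for NOTUM in interceca, with 52 to 69.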
